A study of Homo sapiens with 6 samples.

Results

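The genes described here encode the machinery that copies DNA in S phase: the cyclins and E2F factors that start it, the proteins that license origins, the replicative helicase, the polymerases with their clamp and clamp loader, the enzymes that join Okazaki fragments and those that make deoxynucleotides. They were chosen by symbol from a named list of replication genes, and all 37 were found among the 27830 genes of the deposited table. All 37 also passed the filter on low counts, as did 14463 genes in all. The libraries came from LX-2, an established line of human hepatic stellate cells, the liver cells that become matrix-producing myofibroblasts when activated. There were 3 control samples and 3 samples treated with 10 ng/ml transforming growth factor beta 1 (TGF-β1) for 24 h. No genetic change other than those of the line is given for either group.

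Per the labels, cells were grown in DMEM with serum and TGF-β1 was given without serum, while no source used here gives the medium of control samples. Serum drives cells into S phase, so effects of serum and of TGF-β1 cannot be told apart in the values below. LX-2 cells are an immortal line that divides in culture, which limits them as a model of resting stellate cells. Nothing in the labels shows that replicates came from separate cultures, so the p-values reflect spread between samples that may be technical only. In bulk RNA, fewer cells in S phase and less RNA per cell cannot be told apart.

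Replication begins in G1, when the origin recognition complex, CDC6 and CDT1 load the MCM2 to MCM7 helicase onto origins. CDC45 and the GINS complex then turn the loaded helicase into an active one, and the polymerases follow it with PCNA as their sliding clamp. Many of these genes are transcribed by E2F factors in late G1, when cyclin E and its kinase release E2F from the retinoblastoma protein. TGF-β is a classical inhibitor of this G1 to S step in epithelial cells, while its effect on proliferation of mesenchymal cells such as stellate cells varies.

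The libraries held 13866957 to 17694675 counts, and a detection floor of 3 counts equals 0.17 to 0.216 CPM (counts scaled by library size). This floor covers counting error only, whereas the 95% intervals below come from edgeR and include the spread between samples. FN1, the fibronectin gene used as a check of the treatment, rose from 985 ± 68.9 to 3558 ± 184 CPM (SD, n = 3 per group; log2 difference 1.85 ± 0.12 SE, edgeR quasi-likelihood test with Benjamini-Hochberg adjustment, adjusted p = 5.11e-05). The stellate markers PDGFRB, VIM and COL1A1 were present in all 6 libraries, while DES had 1 to 5 counts and LRAT, the retinol-storing enzyme, 0 to 2. The myofibroblast marker ACTA2 had 65 to 92 counts, COL1A2 29 to 48, GFAP 23 to 44 and RELN 14 to 45. TAGLN had 1325 to 5739 counts, HAND2 187 to 283 and LHX2 134 to 194. Markers of other cell types were mixed. APOA1 and APOB of hepatocytes and EPCAM of epithelia had 0 or 1 count per library, KRT19 0 to 2 and the endothelial cadherin CDH5 0 to 4. The leukocyte gene PTPRC had 3 to 16 counts. In contrast TIE1 had 4307 to 6235 counts, FLT1 1658 to 2893, LAPTM5 1019 to 1343, CD14 150 to 301, CPS1 339 to 735 and KRT8 4375 to 7500. Of these markers TAGLN alone passed the adjusted edgeR test between the groups as counted, higher with TGF-β1 (log2 difference 1.64, adjusted p = 0.000682). The part of the markers in the results was not tested. The libraries differed in how their counts depended on the GC content of the transcript. At 40.0% GC, the 10th percentile of genes, the smoothed deviation from the mean of all libraries was -0.10, -0.41 and -0.07 (log2) in the control libraries, in the order of their numbers, and 0.58, 0.19 and -0.19 in the TGF-β1 libraries. Results are therefore given from the counts as deposited and, beside them, with this trend removed from each library. With the trend removed, the marker COL1A1 also passed, higher with TGF-β1 (edgeR adjusted p = 0.00497).

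The promoters are shown first because E2F is the shared regulator that these genes are known for. RefSeq promoter windows on GRCh38.p14, each 300 bases long from 250 before to 50 after a start, were matched by symbol for 33 of the 37 genes. There was no entry for CCNE2, GINS4, MCM4 and MCM5. The E2F motif was searched as TTTCCCGC, TTTCGCGC, TTTGCCGC and TTTGGCGC on both strands. It was present in 19 of the 33 genes (57.6%) and in 3.99% of the 27305 genes with a window. CCAAT, the site of the factor NF-Y, was searched on both strands and was present in 21 of the 33 genes (63.6%) against 39.7% of all genes with a window. Overlapping matches were each counted. A match is a description of the letters and not a measured binding site.

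Stretches of 100 bases are printed for E2F1, E2F2, MCM3, POLE, MCM10 and RFC1, 6 of the 8 genes whose groups differed most as judged by the unadjusted p, and for MCM6, whose window held the most matches. Each reads 5′ to 3′ along the strand of the gene, and capitals mark the E2F motif. The E2F1 stretch is chr20:33686386-33686485 on the minus strand, E2F2 is chr1:23531234-23531333 on the minus strand, MCM3 is chr6:52284852-52284951 on the minus strand and MCM6 is chr2:135876496-135876595 on the minus strand. POLE is chr12:132687343-132687442 on the minus strand, MCM10 is chr10:13161458-13161557 on the plus strand and RFC1 is chr4:39366363-39366462 on the minus strand.
E2F1: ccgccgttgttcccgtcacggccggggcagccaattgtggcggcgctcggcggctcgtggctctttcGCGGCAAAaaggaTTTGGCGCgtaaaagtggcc
E2F2: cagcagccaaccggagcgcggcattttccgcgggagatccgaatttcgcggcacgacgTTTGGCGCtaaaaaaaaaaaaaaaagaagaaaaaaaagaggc
MCM3: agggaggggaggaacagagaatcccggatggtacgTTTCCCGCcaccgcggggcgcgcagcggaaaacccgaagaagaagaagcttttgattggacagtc
MCM6: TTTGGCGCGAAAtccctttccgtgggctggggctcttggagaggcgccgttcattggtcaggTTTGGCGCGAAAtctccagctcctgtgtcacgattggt
POLE: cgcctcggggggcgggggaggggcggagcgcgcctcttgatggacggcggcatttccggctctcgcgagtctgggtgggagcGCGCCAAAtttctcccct
MCM10: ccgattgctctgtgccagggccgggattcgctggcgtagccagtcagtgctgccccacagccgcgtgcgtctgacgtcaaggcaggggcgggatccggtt
RFC1: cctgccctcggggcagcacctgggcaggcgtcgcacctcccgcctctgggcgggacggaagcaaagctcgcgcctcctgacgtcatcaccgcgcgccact
E2F1, whose product is itself an E2F factor, carried 2 matches just before its start, and E2F2 carried 1. MCM6 carried 4 matches that overlap in 2 palindrome-like pairs. The windows of MCM10 and RFC1, the genes with the largest differences above 0, held no E2F match, while CCAAT was present in both (2 matches in MCM10 and 1 in RFC1). Of the other genes above 0 as counted, POLA1, RFC3 and GINS3 each held 1 E2F match and RFC4 held none. Several genes below 0, such as CCNE1, ORC1 and FEN1, also held none. Whether matches go with the direction of the differences was not tested.

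Levels were first compared between genes on the FPKM scale, which is per length. PCNA, the sliding clamp, had the highest level at 215 ± 19.0 FPKM in controls and 194 ± 14.0 with TGF-β1 (SD, n = 3 per group). TK1, the thymidine salvage kinase, followed at 155 ± 13.6 and 133 ± 23.1 FPKM. The helicase subunits MCM7 and MCM3 stood at 114 ± 8.11 and 111 ± 0.547 FPKM in controls and 95.2 ± 10.5 and 89.1 ± 5.96 with TGF-β1. FEN1, the flap endonuclease of Okazaki fragments, had 102 ± 3.20 and 96.0 ± 8.63 FPKM. The ranges of TK1, MCM7, MCM3 and FEN1 were close to one another, and no order among them was tested.

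The lowest level was that of CCNE2, the second E-type cyclin, at 0.589 ± 0.0545 FPKM in controls and 0.705 ± 0.528 with TGF-β1. E2F2 had 2.35 ± 0.134 and 1.74 ± 0.168 FPKM, and POLA1, the catalytic subunit of polymerase alpha, 2.46 ± 0.647 and 3.21 ± 1.01. The deposited FPKM of POLA1 implies a length of 15547 bases, against 6336 exon bases in GENCODE 29. On the exon bases POLA1 would stand at 6.04 ± 1.59 and 7.87 ± 2.48 FPKM, above GINS3 and GINS4 and no longer among the 5 lowest genes. MCM10, which helps to activate the helicase, had 3.45 ± 0.676 and 4.79 ± 1.10 FPKM, and GINS3, a GINS subunit, 5.18 ± 0.649 and 5.25 ± 0.161. In 33 of the 37 genes the mean FPKM was above the median of all genes tested.

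**Figure D1:**
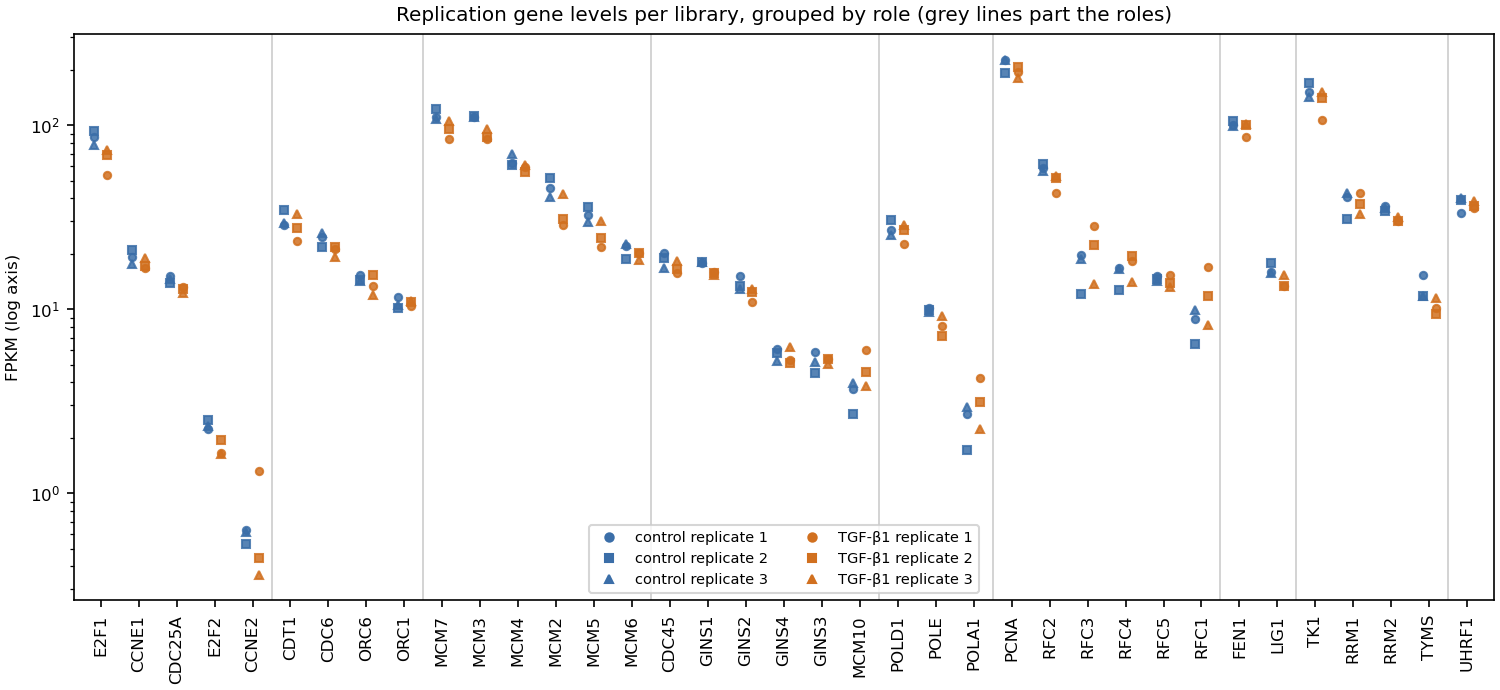
FPKM of each of the 37 replication genes on a log axis, 1 point per library, with control libraries in blue and TGF-β1 libraries in orange and grey lines between the roles. PCNA lies highest and CCNE2 lowest, and the colours lie close together in most genes.

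The subunits of MCM2 to MCM7 form one hexamer with a copy of each, yet their transcripts were not equal in level. As a share of the summed FPKM of the 6 genes in controls, MCM7 took 29.2% ± 1.24 and MCM3 28.6% ± 0.664, while MCM6 took 5.45% ± 0.695 (SD, n = 3). With TGF-β1 these shares were 29.5% ± 1.21, 27.7% ± 0.567 and 6.15% ± 0.791, and for all 3 genes the libraries of the groups overlapped. With the exon bases of GENCODE 29 as lengths, the control shares of MCM7, MCM3 and MCM6 were 29.4%, 28.7% and 5.50%. Which isoforms were expressed was not tested.

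The comparison of TGF-β1 with control asks whether the replication genes change in expression. None of the 37 passed an adjusted p of 0.05 with edgeR on the counts as deposited, where 0.366% of all genes tested passed in either direction. DESeq2, limma voom and limma on log2 FPKM also called 0 of them. DESeq2 called more of all genes than edgeR did, and the limma calls over all genes are not given here. The 0 calls with limma therefore have no share of all genes beside them. At an unadjusted p under 0.05, 6 genes had lower levels with TGF-β1 (16.2% of 37, against 4.49% of all genes tested) and 2 had higher levels (5.41%, against 11.1% of all genes tested). Differences on the log2 scale were below 0 in 30 genes, or 81.1%, against 49.0% of all genes tested. Their median was -0.165, against 0.007 for all genes, and they ran from -0.46 (MCM2) to 0.53 (RFC1). The 3 libraries of a group did not overlap with those of the other in 11 genes that were lower with TGF-β1 (29.7%, against 9.12% of all genes) and in 0 that were higher (7.93% of all genes). The 95% intervals of 35 genes lay within 1 log2 unit of 0, the exceptions being CCNE2 and RFC1, and those of 25 genes lay within a 1.5-fold difference either way.

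After removal of the GC trend, CDC6 alone passed in edgeR (1 lower, 0 higher), where 1.80% of all genes tested were called lower and 1.87% higher. At an unadjusted p under 0.05, 15 genes were lower (40.5%, against 10.6% of all genes) and 1 was higher (2.70%, against 10.2%). Groups did not overlap in 18 genes that were lower (48.6%, against 12.7% of all genes) and in 1 that was higher (2.70%, against 11.0%). The median of the 37 genes was then -0.141, against -0.01 for all genes tested, and 29 differences were below 0.

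**Figure D2:**
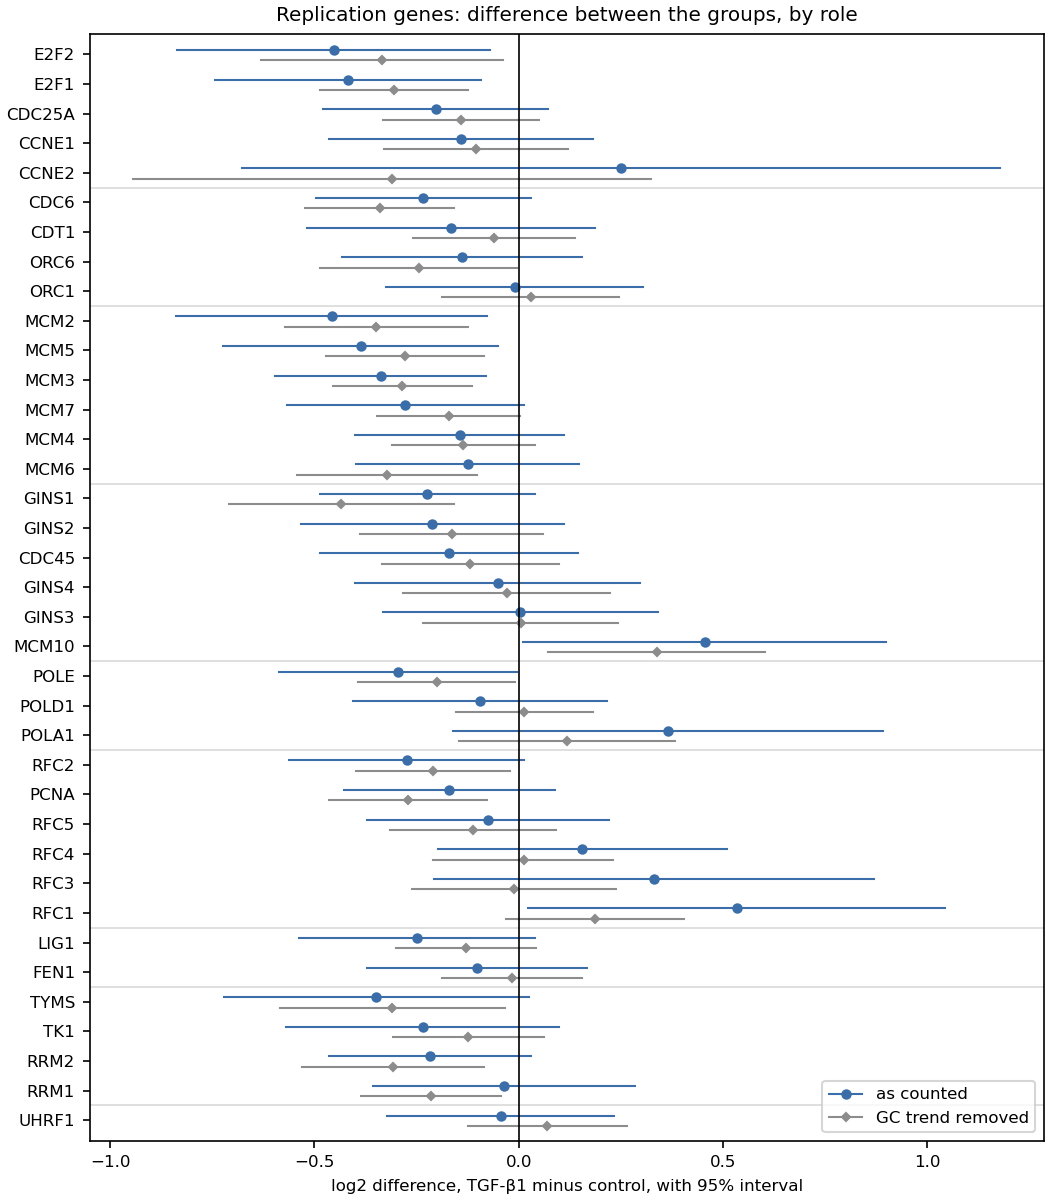
Log2 difference of TGF-β1 minus control for the 37 replication genes, ordered by role, with 95% intervals from edgeR, as counted (blue circles) and with the GC trend removed (grey diamonds). As counted 30 points lie to the left of 0 and with the trend removed 29, and RFC1, MCM10 and POLA1 lie farthest to the right as counted.

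Of the 5 regulators of the G1 to S step, 4 had differences below 0 as counted and 5 with the GC trend removed, and none passed the adjusted test. E2F1, an activator of replication genes, was measured at 233, 257 and 209 CPM in controls and 142, 181 and 201 CPM with TGF-β1. All TGF-β1 libraries lay below all controls, with replicate 3 close to the lowest control. The log2 difference was -0.42 ± 0.15 (SE; 1.34-fold lower, edgeR with Benjamini-Hochberg adjustment, adjusted p = 0.214), and -0.31 ± 0.08 once the GC trend was removed (edgeR adjusted p = 0.0603). E2F2, a related activator at a lower level, had 12.2, 14.1 and 12.6 CPM in controls and 8.93, 10.3 and 9.12 CPM with TGF-β1, again without overlap. Its log2 difference was -0.45 ± 0.17 (edgeR adjusted p = 0.245).

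CDC25A, the phosphatase that activates CDK2, had 62.5, 59.6 and 60.0 CPM in controls and 54.1, 52.1 and 52.0 CPM with TGF-β1. The groups did not overlap, and their means were 60.7 ± 1.57 and 52.8 ± 1.18 CPM (SD), a log2 difference of -0.20 ± 0.13 with an edgeR adjusted p of 0.47. CCNE1, the main cyclin E gene, differed by -0.14 ± 0.15 with overlapping groups. CCNE2 had 2.76, 2.39 and 2.68 CPM in controls and 5.71, 1.90 and 1.62 CPM with TGF-β1. Its difference of 0.25 ± 0.42 was above 0 through TGF-β1 replicate 1 alone and was -0.56 without it, and other genes, whose reads an unstranded library cannot part, cover 37.1% of its exon bases.

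The origin licensing genes ORC1, ORC6, CDC6 and CDT1 all had differences below 0 as counted, from -0.23 to -0.01. CDC6, the ATPase that recruits the helicase to the origin complex, had 131, 119 and 136 CPM in controls and 112, 112 and 104 CPM with TGF-β1, with no overlap. Its log2 difference was -0.23 ± 0.12 as counted (edgeR adjusted p = 0.373). After removal of the trend its levels were 133, 136 and 132 CPM in controls and 95.7, 111 and 110 CPM with TGF-β1, and CDC6 fell by 0.34 ± 0.08 on the log2 scale (edgeR adjusted p = 0.0414). Leaving out 1 library in turn gave adjusted p-values from 0.026 to 0.188 for that version, and CDC6 then passed only without TGF-β1 replicate 3. CDT1, the other helicase loader, differed by -0.17 ± 0.16, ORC6 by -0.14 ± 0.13 and ORC1, subunits of the recognition complex, by -0.01 ± 0.14, and all had overlapping groups.

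All 6 subunits of the helicase core had differences below 0 in both versions, with a median of -0.31 as counted and -0.28 with the GC trend removed, and none passed the adjusted test. With the trend removed, the 3 TGF-β1 libraries lay below the 3 controls in all 6 genes, whereas as counted this held for MCM3 and MCM4. Of all genes tested, this held for 12.7% with the trend removed and 9.12% as counted. MCM2 was measured at 215, 251 and 192 CPM in controls and 134, 142 and 204 CPM with TGF-β1. TGF-β1 replicates 1 and 2 were below every control, and replicate 3 lay among the controls. The log2 difference was -0.46 ± 0.17 (1.37-fold lower, edgeR adjusted p = 0.241) and -0.35 ± 0.10 with the trend removed (adjusted p = 0.0815). Other genes cover 23.6% of the exon bases of MCM2.

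MCM5 showed the same layout of libraries, with 236, 269 and 216 CPM in controls and 156, 172 and 224 CPM with TGF-β1. Its log2 difference was -0.39 ± 0.15 (edgeR adjusted p = 0.257). MCM3 had 404, 420 and 402 CPM in controls and 305, 309 and 357 CPM with TGF-β1, and here no library of one group reached the other. The log2 difference of MCM3 was -0.34 ± 0.12 (1.26-fold lower, edgeR adjusted p = 0.21), and -0.29 ± 0.08 with the trend removed (adjusted p = 0.0635).

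MCM7 had 485, 556 and 470 CPM in controls and 366, 411 and 471 CPM with TGF-β1, so that replicate 3 lay just above the lowest control. MCM7 differed by -0.28 ± 0.13, MCM4 by -0.14 ± 0.12 and MCM6 by -0.13 ± 0.13 (log2, as counted). MCM6, whose transcript is the poorest in GC of the helicase core at 43.1%, differed by -0.32 ± 0.10 with the trend removed (edgeR adjusted p = 0.0952).

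Among the 6 genes of helicase activation, 4 had differences below 0, and MCM10 had the highest. MCM10 was measured at 20.1, 15.2 and 21.6 CPM in controls and 32.3, 24.3 and 21.3 CPM with TGF-β1, with replicate 3 between the controls. The log2 difference was 0.46 ± 0.20 (1.37-fold higher, edgeR adjusted p = 0.306). After the removal it was 0.34 ± 0.12 (adjusted p = 0.14), and the groups no longer overlapped. GINS1 had 73.5, 77.3 and 74.3 CPM in controls and 64.7, 63.6 and 64.5 CPM with TGF-β1, with no overlap, and differed by -0.22 ± 0.12 (edgeR adjusted p = 0.396). GINS1 differed by -0.43 ± 0.13 with the trend removed (adjusted p = 0.0784). The removal raised its SD from 2.02 to 11.7 CPM in controls and from 0.566 to 10.4 CPM with TGF-β1.

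GINS2 differed by -0.21 ± 0.15 and CDC45, the helicase cofactor that GINS holds in place, by -0.17 ± 0.15 (log2, as counted). GINS4 and GINS3 differed by -0.05 ± 0.16 and 0.004 ± 0.16. The 4 GINS proteins form one complex, and the groups overlapped in 3 of their genes. In GINS4, 23.6% of exon bases overlap antisense genes.

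The 3 catalytic polymerase genes did not share a sign. POLE, the leading-strand polymerase, had 170, 172 and 161 CPM in controls and 134, 118 and 157 CPM with TGF-β1, all below the controls, and differed by -0.29 ± 0.13 (1.23-fold lower, edgeR adjusted p = 0.314). POLA1, which primes synthesis together with primase, had 42.1, 27.7 and 45.6 CPM in controls and 65.4, 47.5 and 35.5 CPM with TGF-β1. POLA1 replicate 3 lay inside the control range, and the difference was 0.37 ± 0.24 as counted (edgeR adjusted p = 0.494) and 0.12 ± 0.12 with the GC trend removed. POLD1, the lagging-strand polymerase, differed by -0.10 ± 0.14 as counted and 0.01 ± 0.08 with the trend removed.

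PCNA had 315, 280 and 318 CPM in controls and 269, 285 and 258 CPM with TGF-β1. One TGF-β1 library exceeded the lowest control, and the log2 difference was -0.17 ± 0.12 (1.13-fold lower, edgeR adjusted p = 0.524). The 5 genes of the clamp loader, which opens PCNA around DNA, were split in sign. RFC1, its large subunit, had 59.6, 44.7 and 65.9 CPM in controls and 112, 77.3 and 56.4 CPM with TGF-β1. Replicates 1 and 2 of TGF-β1 were above all controls and replicate 3 was within them. The log2 difference of RFC1 was 0.53 ± 0.23 as counted (1.45-fold higher, edgeR adjusted p = 0.297) and 0.19 ± 0.10 with the trend removed (adjusted p = 0.314).

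RFC2, a small subunit, had 130, 140 and 124 CPM in controls and 94.1, 111 and 120 CPM with TGF-β1, without overlap, and differed by -0.27 ± 0.13 (edgeR adjusted p = 0.339). RFC3 differed by 0.33 ± 0.25 as counted and -0.01 ± 0.12 with the trend removed. RFC4 differed by 0.16 ± 0.16 and RFC5 by -0.08 ± 0.14. The FPKM ratio of RFC2 to RFC1 was 6.61, 9.53 and 5.70 in controls and 2.54, 4.36 and 6.47 with TGF-β1, and the groups overlapped.

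FEN1 and LIG1, the ligase that seals Okazaki fragments, differed by -0.10 ± 0.12 and -0.25 ± 0.13. All 4 genes of deoxynucleotide supply were below 0 in both versions, with none past the adjusted test. RRM2, the regulated subunit of ribonucleotide reductase, had 331, 321 and 324 CPM in controls and 275, 268 and 297 CPM with TGF-β1, with no overlap as counted, and differed by -0.22 ± 0.11 (edgeR adjusted p = 0.381). With the trend removed the RRM2 groups overlapped, and the difference was -0.31 ± 0.10 (edgeR adjusted p = 0.114). RRM1, the large subunit, differed by -0.04 ± 0.15 as counted and -0.21 ± 0.08 with the trend removed. The FPKM ratio of RRM2 to RRM1 was 0.940 ± 0.143 in controls and 0.827 ± 0.132 with TGF-β1 (SD, n = 3 per group), a difference within the spread. The level of this ratio depends on length: the deposited FPKM of RRM2 implies 9153 bases against 5323 exon bases in GENCODE 29, and on exon bases the ratio was 1.60 ± 0.242 and 1.40 ± 0.223, above 1 in both groups.

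TYMS, thymidylate synthase, had 37.1, 29.6 and 28.5 CPM in controls and 24.2, 22.2 and 28.4 CPM with TGF-β1. The groups did not overlap, with the highest TGF-β1 library just below the lowest control, and the log2 difference was -0.35 ± 0.17 (edgeR adjusted p = 0.35). The TYMS value is uncertain because 46.6% of its exon bases overlap ENOSF1 or TYMSOS, which lie on the opposite strand. In RRM2, 20.2% of exon bases overlap another gene model. TK1 had 278, 323 and 263 CPM in controls and 196, 254 and 285 CPM with TGF-β1, overlapping through replicate 3, and differed by -0.24 ± 0.15. UHRF1, which brings the maintenance DNA methyltransferase to new DNA, differed by -0.04 ± 0.13.

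The 37 genes were next read library by library, each against the mean of the controls. Their median log2 deviation was 0.03, 0.02 and -0.05 for controls and -0.22, -0.21 and -0.10 for TGF-β1, by replicate number. TGF-β1 replicate 3 was thus the treated library nearest to the controls, although FN1 was at 3372 CPM in it, against 3739 and 3563 CPM in the other TGF-β1 libraries. Summed over the 37 genes, controls held 5118, 5281 and 5044 CPM and TGF-β1 libraries 4302, 4409 and 4790 CPM, with no overlap between groups. The means were 5148 ± 121 and 4500 ± 257 CPM (SD, n = 3 per group), or 0.515% and 0.450% of the TMM-scaled library size over the genes tested. MCM7 and the other abundant genes weigh most in these sums. After the removal the means were 5102 ± 69.6 and 4509 ± 238 CPM.

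**Figure D3:**
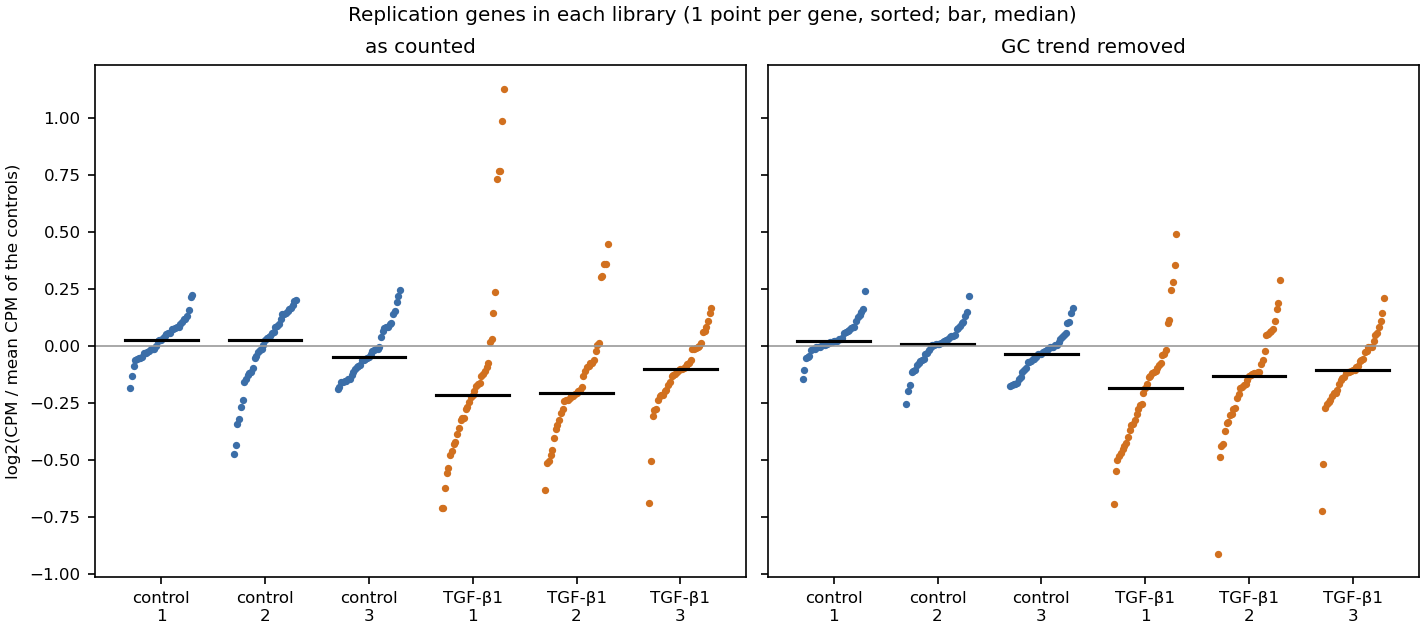
Log2 ratio of CPM to the mean CPM of the controls for the 37 replication genes in each of the 6 libraries, 1 point per gene, with a bar at the median, as counted and with the GC trend removed. The TGF-β1 medians are -0.22, -0.21 and -0.10 as counted and -0.19, -0.13 and -0.11 with the trend removed.

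One library decided the number of calls. Without TGF-β1 replicate 3, edgeR called MCM2 (adjusted p = 0.0121), MCM5 (0.0218), E2F1 (0.0357) and MCM3 (0.0376) lower and RFC1 higher (0.0285). The 4 lower and 1 higher calls among 37 stand beside 2.0% and 9.24% of all genes called lower and higher in that fit. With the GC trend removed and the same library left out, 8 genes were called lower, beside 4.83% of all genes: MCM2, MCM5, RRM2, GINS1, MCM6, CDC6, MCM3 and E2F1. With any other single library left out, edgeR called 0 of the 37, as counted or with the trend removed.

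Differences moved with transcript GC content. Across the 37 genes, Pearson's r between the log2 difference and the GC content was -0.606 and Spearman's rho -0.625, as a description over genes that share the same 6 libraries. Over 14375 genes tested with a GC value Pearson's r was -0.486. A limit of 45% GC, chosen after the values were seen, was used to describe this. The 8 replication genes under 45% GC had a median difference of 0.20 as counted, with 5 above 0. The other 29 had a median of -0.20, with 2 above 0. With the trend removed the medians were -0.11 and -0.14, and r over the 37 genes was -0.044, which the removal itself sets near 0. Of the differences above 0, those of RFC1, POLA1, RFC3, RFC4 and CCNE2 belong to transcripts under 45% GC, and MCM10 and GINS3 lie at 45.1% and 48.7%.

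**Figure D4:**
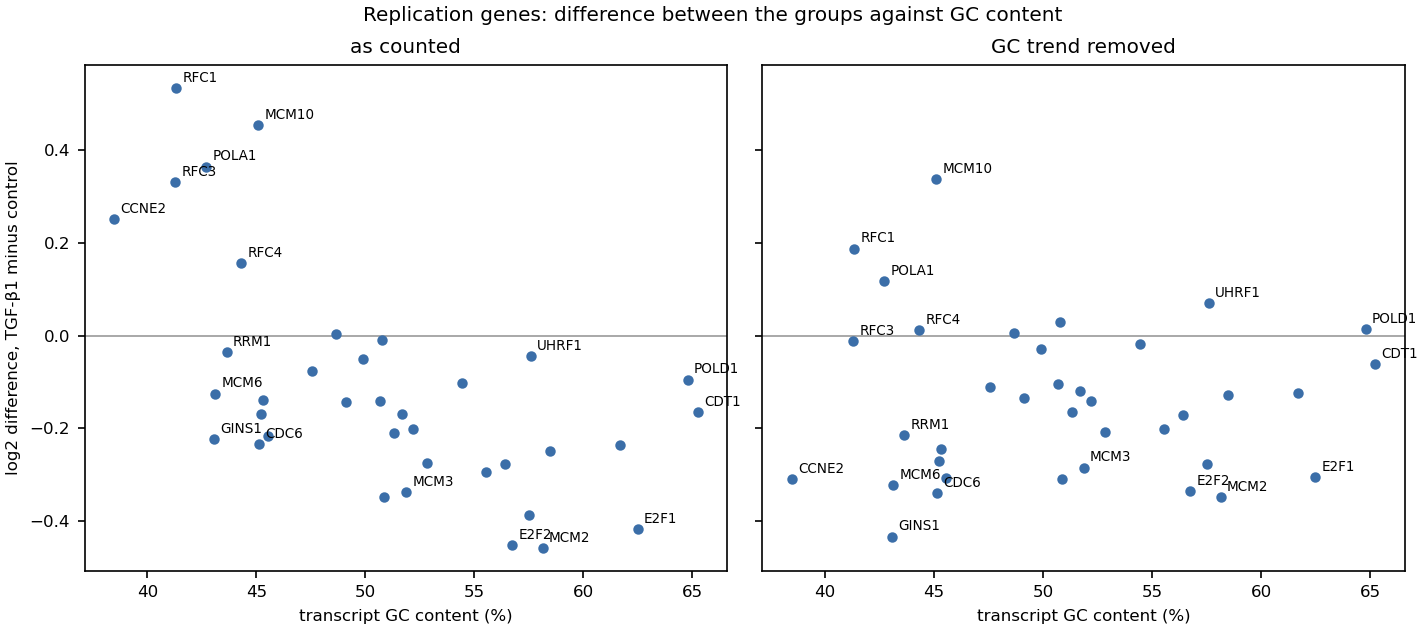
Log2 difference of TGF-β1 minus control against transcript GC content for the 37 replication genes, as counted and with the GC trend of each library removed. The points slope down as counted (r = -0.606) and show no slope with the trend removed (r = -0.044).

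The remaining genes of the pathway were taken from 4 lists. Of 55 other replication genes, 53 were tested, and CHTF8 and RNASEH2A were not because of low counts. None passed the adjusted edgeR test as counted, while DESeq2 called 3 higher (ATAD5, TOPBP1 and WDHD1) and limma 0. DESeq2 also called more of all genes than edgeR did, so the 3 calls are not read as a result about this list. At an unadjusted edgeR p under 0.05 there were 8 higher and 1 lower of 53, where 11.1% and 4.49% of all genes were higher and lower. Their median was 0.08 as counted. The balance turned once the GC trend was removed, with 5 higher and 15 lower at an unadjusted p under 0.05 (10.2% and 10.6% of all genes), 32 differences below 0 and a median of -0.05. The smallest p belonged to ATAD5, which unloads PCNA, with 4.6, 6.35 and 7.19 CPM in controls and 23.9, 14.3 and 9.27 CPM with TGF-β1. Its libraries did not overlap, and its log2 difference was 1.39 ± 0.32 (edgeR adjusted p = 0.105). WDHD1, which links the helicase to polymerase alpha, and TOPBP1, which helps to fire origins, differed by 1.03 and 0.97 (adjusted p = 0.146 for both). With the GC trend removed, ATAD5, TOPBP1 and WDHD1 rose by 0.80, 0.63 and 0.55 (edgeR adjusted p = 0.0365, 0.021 and 0.0316).

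Of 20 genes for E2F factors, pocket proteins and their partners, all tested, 0 passed the adjusted edgeR test as counted, 0 passed in DESeq2 and limma, and 3 were higher and 0 lower at an unadjusted p under 0.05, where 11.1% and 4.49% of all genes were. They were RB1, the retinoblastoma protein, at 0.65, RBL1, a related pocket protein, at 0.67 and LIN54, a DNA-binding partner of them, at 0.59 on the log2 scale (edgeR adjusted p = 0.224, 0.291 and 0.264). On removal of the trend RB1, RBL1 and LIN54 stood at 0.19, 0.31 and 0.19, and the list had 0 higher and 3 lower genes at an unadjusted p under 0.05 (10.2% and 10.6% of all genes). WEE1, an inhibitory kinase of CDK1, then fell by 0.37 (edgeR adjusted p = 0.0389).

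Of 13 G1 cyclins, kinases and CDK inhibitors, 0 passed in edgeR as counted and in limma. DESeq2, which called more of all genes than edgeR did, called CDK6 alone. At an unadjusted p under 0.05 in edgeR, 1 was higher and 1 lower in both versions. Of all genes tested, 11.1% were higher and 4.49% lower as counted, and 10.2% and 10.6% with the trend removed. CDK6, a kinase that phosphorylates the retinoblastoma protein, differed by 1.25 ± 0.26 as counted (edgeR adjusted p = 0.0774) and rose by 1.0 with the trend removed (adjusted p = 0.00165). The inhibitor genes CDKN2D and CDKN1C differed by -0.44 and -0.49 (edgeR adjusted p = 0.244 and 0.463).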

How the data were processed

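RNA from 3 control and 3 TGF-β1 samples of LX-2 was sequenced. Per the labels' protocols, the library kit was NEBNext Ultra RNA, whose reads carry no strand. HISAT2, HTSeq version 0.13.5 and GRCh38 are named in the submitters' processing notes, without their roles. Per the file headers, the deposited table gives a read count per gene and sample without normalization. It also gives FPKM values deposited by the authors, which are scaled by gene length and by the table's total.

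The test was that of edgeR 4.0.16, run under R 4.3.3 (quasi-likelihood F test, robust, TMM, filterByExpr, two-sided, Benjamini-Hochberg over 14463 genes, called at an adjusted p under 0.05). CPM use TMM-scaled library sizes. The GC trend was a loess curve (span 0.5) of each library's log2 CPM on transcript GC content from GENCODE 29, used as an offset. Alternatives were DESeq2 1.42.0, limma 3.58.1 (voom, and log2 FPKM with pseudocounts of 1 and 0.1), other scaling factors and filters, a replicate block and each library left out. FPKM on GENCODE exon bases was added after seeing the data. The edgeR code was tested on simulated data. Chi-square per degree of freedom between libraries of a group was 4.86 to 41.1, so none was taken as a duplicate.

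The replication genes and all lists were chosen with earlier results of these data known. All 37 are named. Other lists give their called genes, or the 3 with the smallest p, and WEE1 and MKI67 were named after their values were seen. Some genes of these lists are not reported here. Genes at an unadjusted p under 0.05 and the 5 highest and 5 lowest in FPKM were described individually, with others added after their values were seen.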

Additional observations from a re-analysis of the deposited data

How the results depend on the processing

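Among the 14463 genes tested, edgeR made 53 calls, against 615 with DESeq2, 111 with upper quartile factors and 532 with the GC trend removed. There were 527 calls with the replicate block and 530 with both. The fits with no filter and with 1 library left out tested other sets of genes, such as 14874 without TGF-β1 replicate 3. They made 1240 calls and 4 to 1671 calls. The counts for the lists below are raw counts, without the share of all genes in each fit. Of the 37 replication genes 0 were called, against 1 with the trend removed, 2 with no filter (MCM2 lower, adjusted p = 0.0312, and RFC1 higher, 0.0277) and 0 to 5 with 1 library left out (lower 0 to 4, higher 0 to 1). With the trend removed and 1 library left out, chosen after seeing the data, 0 to 8 were called, all lower. Of the other replication genes 0 were called, against 3 with DESeq2, 5 with no filter, 4 with the trend removed, 3 with the replicate block, 4 with both and 0 to 8 with 1 library left out. Of the mitosis genes 0 were called, against 4 with DESeq2, 8 with no filter, 1 with upper quartile factors, 2 with the trend removed, 6 with the block, 2 with both and 0 to 10 with 1 library left out. The median of the replication genes stayed between -0.199 and -0.141 in the settings that did not combine trend removal with a library left out. With the trend removed it was -0.129 without TGF-β1 replicate 1 and -0.122 without TGF-β1 replicate 2. Deviations of each library from its group mean were correlated over genes between control and TGF-β1 libraries. Same-numbered libraries gave 0.176, 0.1 and -0.355 as counted, and -0.0122, 0.0847 and -0.167 with the trend removed. Libraries with different numbers gave -0.507 to 0.445 as counted and -0.22 to 0.24 with the trend removed. With 3 samples a group, these values cannot settle whether the numbers pair the samples. The block called 0 of the 37, and with the trend removed it took CDC6 to an adjusted p of 0.0527.

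Signs of single replication genes changed in the following cases, which leave out the fits with both the trend removed and 1 library left out. In those fits further signs changed, such as FEN1 at 0.032 without TGF-β1 replicate 1 and POLA1 at -0.001 without control replicate 2. With the trend removed the differences were -0.31 for CCNE2, 0.03 for ORC1, 0.014 for POLD1, -0.012 for RFC3 and 0.07 for UHRF1. With the block as well they were -0.40, 0.03, 0.014, -0.017 and 0.075. ORC1 was at 0.01 and 0.009 with log2 FPKM (pseudocounts 0.1 and 1) and 0.009 with total counts. GINS3 was at -0.002 with DESeq2 and with RLE factors, -0.006 with no filter and -0.028 with upper quartile factors. With 1 library left out, CCNE2 ran from -0.561 to 0.539, ORC1 from -0.06 to 0.038, GINS3 from -0.095 to 0.088, GINS4 from -0.161 to 0.016, POLD1 from -0.192 to 0.001 and RRM1 from -0.183 to 0.037. The cause was not tested. With 3 samples a group, 25 of 37 intervals lay within 1.5-fold as counted, and the other 12 allow larger differences.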

Other observations

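Genes of mitosis, the phase that follows replication, were read beside the replication genes. Of 30 such genes 29 were tested, NUSAP1 having 2 to 14 counts, and edgeR called 0 as counted. DESeq2, which called more of all genes than edgeR did, called 4, and limma called 0. At an unadjusted p under 0.05, 9 were higher and 0 lower, where 11.1% and 4.49% of all genes were, and the median log2 difference was 0.30, against -0.165 for the 37 replication genes. The difference between the lists was not tested. CENPF, a kinetochore protein of G2 and M phase, had 27.7, 29.6 and 37.3 CPM in controls and 103, 66.0 and 44.9 CPM with TGF-β1, with all treated libraries above all controls and a log2 difference of 1.18 (edgeR adjusted p = 0.0915). ASPM, a spindle pole protein, differed by 1.38 and CENPE, a kinetochore motor, by 1.22 (adjusted p = 0.124 and 0.142). With the GC trend removed, 5 were higher and 1 lower at an unadjusted p under 0.05 (10.2% and 10.6% of all genes), and the median of the mitosis genes was -0.02, against -0.141 for the replication genes. CENPF rose by 0.75 and MKI67, the proliferation antigen Ki-67, by 0.66 in that version (edgeR adjusted p = 0.00789 and 0.0482). The GC trend of the libraries moves with these differences, and its part in them was not tested beyond this removal.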
